A study of Sus scrofa domesticus with 4 samples.

Results

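A set of 6 stromal genes, LUM, DCN, COL1A2, COL3A1, LOX and TPBG, most of them for collagens and proteoglycans, was followed in cultured porcine endometrium treated with orexin A (OXA) and in untreated controls. The genes were chosen by their log2 ratios of OXA over control on each array, with array 1 set apart from the other 3, so those ratios are given as a description, with no test. Probes were matched to the genes through the RefSeq identifiers of the array. Matches were found for 5 of the 6 genes, with 17 of the 43603 probes of the array, and all 17 were kept after a filter on dim probes that left 26925. COL3A1, which encodes the chain of type III collagen, had no matching probe and was not measured here. LUM, DCN and COL1A2 are collagen or proteoglycan genes in the literal sense, whereas LOX encodes an enzyme and TPBG a membrane glycoprotein.

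Fibrillar collagens are made mainly by stromal fibroblasts and form the scaffold of the endometrium. Small leucine-rich proteoglycans bind the surface of collagen fibrils and regulate their diameter and spacing, and lysyl oxidase cross-links the fibrils once they are outside the cell. The stroma of the uterus is remodelled as the conceptus begins to attach.

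Slices of endometrium (3 mm, 100 mg) came from 4 gilts, crosses of Large White and Polish Landrace, aged 7 to 8 months, weighing 120 to 130 kg and on days 15 to 16 of gestation. After 2 h of preincubation they were kept for 24 h with OXA or without it, as the control. The dose is 10 nM in the labels, whereas the series' design text has 10 µM. Each of 4 two-colour arrays held 1 OXA RNA and 1 control RNA, and the dyes were swapped: the label of each sample puts OXA in Cy5 for arrays 1 and 3 but in Cy3 for arrays 2 and 4, whereas the text on labelling has OXA in Cy5 throughout. The 4 experiments each held duplicate cultures, and the labels do not say whether 1 gilt gave both RNAs of an array. A slice holds epithelium, vessels, muscle and immune cells beside the stroma, so fewer cells of a type and less RNA per cell cannot be told apart.

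Array 1 lay on a slide of its own and was scanned 71 days after the others, which shared a slide. In Cy3, which carried the control RNA there, 31.7% of its probes were well above background, against 52.1% to 56.7% on arrays 2 to 4. The share in Cy5 was 62.3% to 74.5% over the 4 arrays. The SD of the log2 ratios over the tested probes was 0.46 on array 1, 0.31 on array 2, 0.18 on array 3 and 0.17 on array 4. No spot was saturated. Precision is limited by having 4 arrays.

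All 5 measured genes had their highest OXA over control ratio on array 1. By the brightest probe of each gene, OXA was higher there by 2.27-fold for LUM, 2.76-fold for DCN, 2.71-fold for COL1A2, 2.10-fold for LOX and 1.89-fold for TPBG. Over arrays 2 to 4 the same probes ran between -0.52 and 0.74 on the log2 scale, with 11 of 15 values above 0. The median of the 5 genes was 1.18 on array 1, 0.02 on array 2, 0.27 on array 3 and 0.05 on array 4, so that array 1 exceeded the mean of the others by 1.07. Among all tested probes, array 1 was the highest of the 4 for 47.3%, and 3.4% were at least 2-fold higher with OXA on it. For the probes of the chosen genes these counts were 16 of 17 and 8 of 17. On arrays 2, 3 and 4, 0 of 17 were at least 2-fold higher, against 1.79%, 0.119% and 0.0966% of all tested probes, and 0 of 17 were at least 2-fold lower on array 1, against 1.38%. The mean was above 0 for 16 of 17, against 57.1%. By Dixon's ratio, array 1 stood apart above the rest for 7 of 17, against 13.9% of all tested probes, and any array stood apart for 24.6% of them. Nothing is read from these shares, since the ratios chose the genes.

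**Figure D1:**
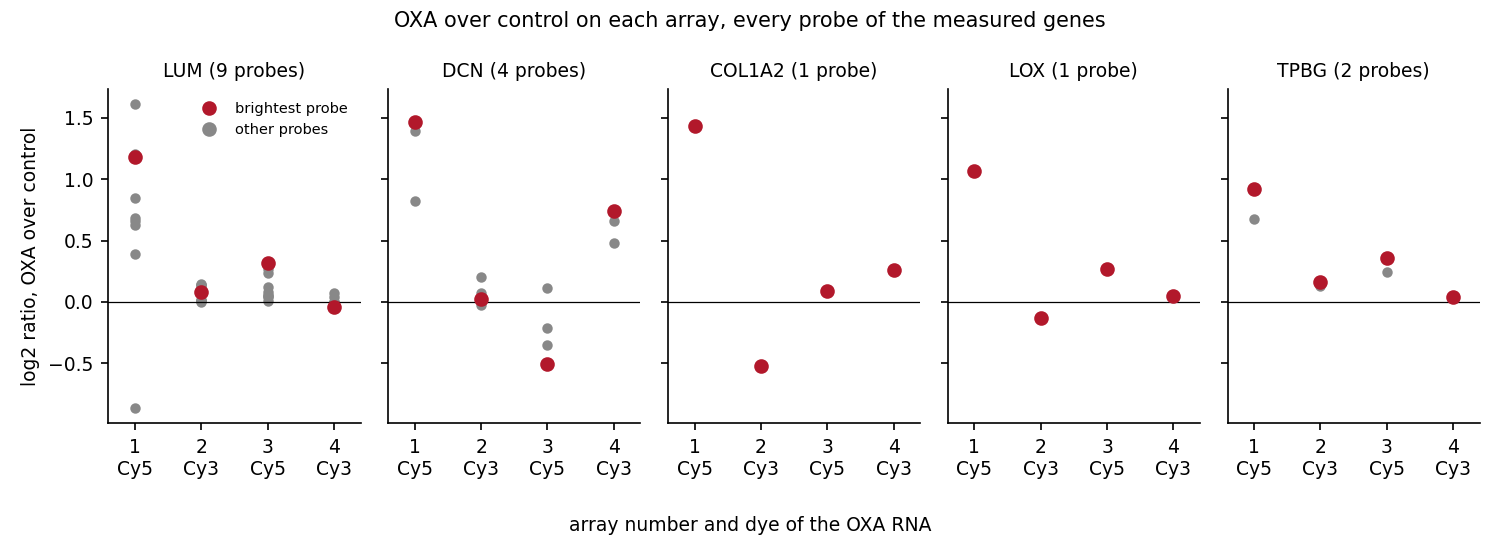
Log2 ratio of OXA over control (vertical axis) on arrays 1 to 4, with the dye of the OXA RNA under each array number, for every probe of LUM, DCN, COL1A2, LOX and TPBG. Red points are the brightest probe of a gene and grey points its other probes. The red points lie at 0.92 to 1.46 on array 1 and between -0.52 and 0.74 on arrays 2 to 4, and 1 LUM probe lies at -0.87 on array 1.

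LUM encodes lumican, a keratan sulfate proteoglycan of the fibril surface. Its brightest probe gave log2 ratios of 1.18 on array 1, 0.08 on array 2, 0.32 on array 3 and -0.04 on array 4, a mean of 0.39 ± 0.55 (SD, n = 4). Arrays 2 to 4 averaged 0.12 ± 0.18 (SD, n = 3), and the value of array 1 lay above all of them. Normalized log2 intensity of the OXA RNA was 11.97, 10.91, 11.60 and 11.89 on arrays 1 to 4, against 10.79, 10.83, 11.28 and 11.93 for the control RNA. The LUM levels of the OXA and control RNAs overlapped across arrays. On array 1 the control RNA held the lowest of its 4 LUM levels and the OXA RNA the highest of its own.

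LUM had 9 probes, and they did not give 1 answer. On array 1, 8 of the 9 were above 0, at 0.39 to 1.61, while the second brightest, A_72_P455882, gave -0.87. That probe followed the others on the remaining arrays, with 0.11 on array 2, 0.27 on array 3 and -0.04 on array 4. Of the 8 probes above 0, the 5 dimmest lay at 0.39 to 0.85 on array 1 and the 3 brightest at 1.18 to 1.61, and 5 LUM probes had a control reading there that was not well above background. In the log ratio deposited by the authors, which had no normexp offset, the same 8 probes lay closer together on array 1, at 1.43 to 1.93, and the discordant probe was at -0.76. The deposited ratios also put all 9 LUM probes above 0 on array 3, with 0.48 to 1.10 for these 8. Why 1 LUM probe differed on 1 array was not tested.

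**Figure D2:**
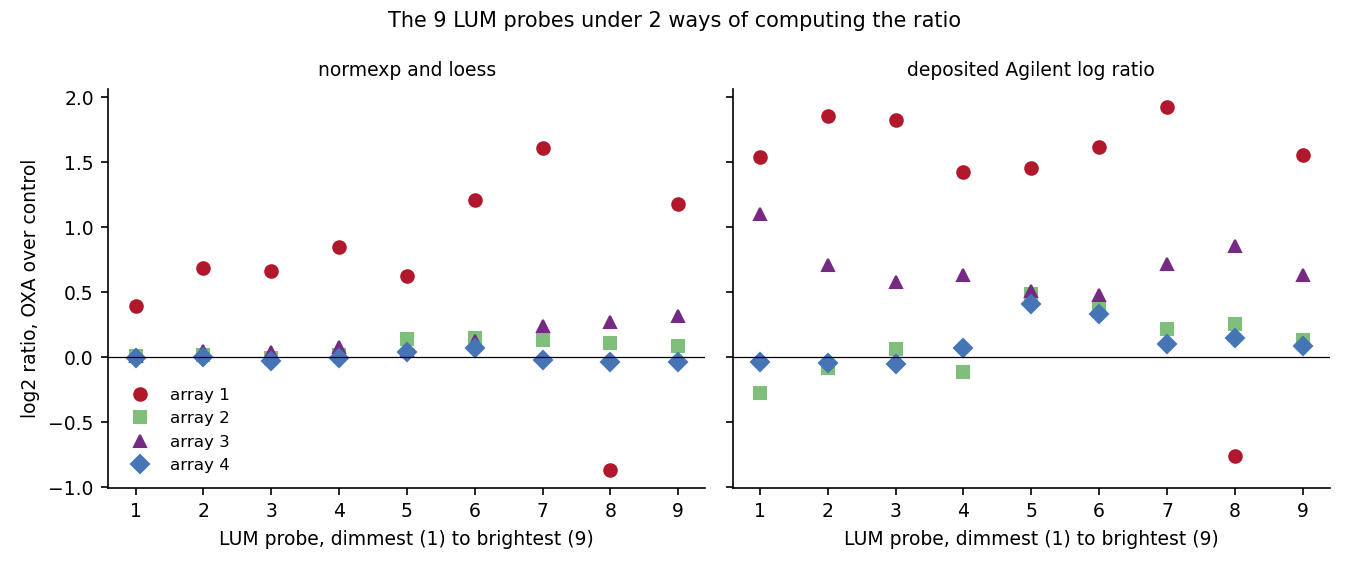
Log2 ratio of OXA over control (vertical axis) for the 9 LUM probes ordered from dimmest to brightest (horizontal axis), after normexp and loess in the left panel and from the deposited log ratio in the right panel, with 1 symbol per array. On array 1, 8 probes lie at 0.39 to 1.61 in the left panel and at 1.43 to 1.93 in the right panel, and the second brightest probe, at position 8, lies at -0.87 and -0.76.

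DCN encodes decorin, a dermatan sulfate or chondroitin sulfate proteoglycan that binds collagen and growth factors of the TGF-beta family. Its brightest probe gave 1.46 on array 1, 0.02 on array 2, -0.50 on array 3 and 0.74 on array 4, a mean log2 ratio of 0.43 ± 0.86 (SD, n = 4). Without array 1 the mean was 0.08 ± 0.62 (SD, n = 3). DCN was thus above 0 on array 4 as well as on array 1, and below 0 on array 3. Its 4 probes ran from 0.82 to 1.46 on array 1, from -0.50 to 0.12 on array 3 and from 0.48 to 0.75 on array 4, with the only disagreement in sign between probes on arrays 2 and 3. Normalized log2 intensity was 15.65, 14.13, 14.76 and 15.24 for the OXA RNA on arrays 1 to 4, against 14.18, 14.11, 15.26 and 14.51 for the control RNA, with overlap between OXA and control. In the Sscrofa11.1 gene table DCN and LUM are neighbours, and the ratios of their brightest probes lay on opposite sides of 0 on arrays 3 and 4. On array 4 this rested on LUM at -0.04. In the deposited log ratio both were above 0 there, at 0.09 for LUM and 0.60 for DCN.

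COL1A2 encodes the alpha 2 chain of type I collagen, the main fibrillar collagen of connective tissue. Its single probe gave log2 ratios of 1.44 on array 1, -0.52 on array 2, 0.09 on array 3 and 0.26 on array 4, a mean of 0.32 ± 0.82 (SD, n = 4). The mean of arrays 2 to 4 was -0.06 ± 0.41 (SD, n = 3), so the sign of the COL1A2 mean rested on array 1. Normalized log2 intensity of the OXA RNA was 14.36, 11.85, 13.28 and 15.17 on arrays 1 to 4, against 12.92, 12.37, 13.19 and 14.91 for the control RNA. Both RNAs were lowest on array 2 and highest on array 4. The COL1A2 level spanned 3.32 log2 units across the OXA RNAs and 2.54 across the control RNAs, more than its ratio on any array.

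LOX encodes lysyl oxidase, the secreted copper enzyme that starts the cross-linking of collagen and elastin. Its single probe gave 1.07 on array 1, -0.13 on array 2, 0.27 on array 3 and 0.05 on array 4, a mean log2 ratio of 0.31 ± 0.53 (SD, n = 4). Over arrays 2 to 4 the mean was 0.06 ± 0.20 (SD, n = 3), with values on both sides of 0. The normalized log2 intensity of LOX was 11.64, 11.27, 11.86 and 10.84 in the OXA RNA on arrays 1 to 4, against 10.57, 11.41, 11.58 and 10.79 in the control RNA. The control RNA of array 1 had the lowest LOX level of all 8 RNAs, while the OXA RNA of that array lay within the range of the other OXA RNAs.

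TPBG encodes trophoblast glycoprotein, also called 5T4, a leucine-rich membrane protein first described on human trophoblast and not a part of the fibrillar matrix. Its brightest probe was above 0 on 4 of 4 arrays, with log2 ratios of 0.92, 0.17, 0.36 and 0.04 on arrays 1 to 4 and a mean of 0.37 ± 0.39 (SD, n = 4). Of all tested probes 7.67% were above 0 on 4 of 4 arrays, and so were 5 of the 17 probes of the chosen genes, LUM and DCN probes among them. The ratios chose the genes, so nothing is read from this count. The second TPBG probe gave 0.67, 0.13, 0.24 and 0.03 in the same order, and arrays 2 to 4 averaged 0.19 ± 0.16 (SD, n = 3) by the brightest probe. TPBG levels on the normalized log2 scale were 11.61, 12.04, 11.71 and 11.24 in the OXA RNA on arrays 1 to 4, against 10.69, 11.87, 11.36 and 11.19 in the control RNA. The OXA level on array 1 lay inside the range of the other arrays, and the control level on array 1 lay below all the others.

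**Figure D3:**
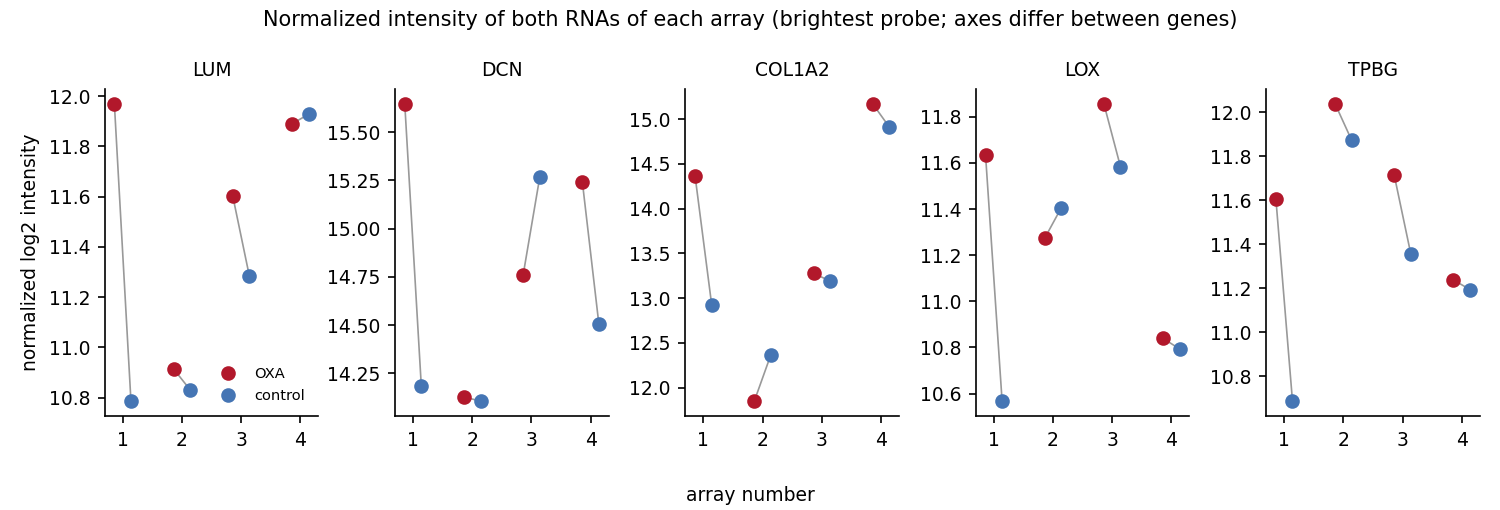
Normalized log2 intensity (vertical axis, which differs between panels) of the OXA RNA (red) and the control RNA (blue) on arrays 1 to 4, for the brightest probe of each gene, with a line joining the 2 RNAs of an array. On array 1 the control RNA is the lowest of the 4 controls for LUM, LOX and TPBG, and COL1A2 moves between arrays by up to 3.32 log2 units in the OXA RNA.

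Set against arrays 2 to 4, the OXA RNA of array 1 lay above their range for LUM and DCN and inside it for COL1A2, LOX and TPBG, and the control RNA of array 1 lay below their range for LUM, LOX and TPBG and inside it for DCN and COL1A2. The OXA RNA of array 1 exceeded the mean of the other OXA RNAs by 0.50 log2 units for LUM, 0.94 for DCN, 0.93 for COL1A2 and 0.31 for LOX, and it differed by -0.06 for TPBG. The control RNA of array 1 differed from the mean of the other control RNAs by -0.56 for LUM, -0.44 for DCN, -0.57 for COL1A2, -0.69 for LOX and -0.79 for TPBG. The low control readings stood beside the low share of Cy3 probes above background on that array, and the part of that share in the ratios was not tested. These levels come from 1 RNA in each dye on each array, and levels in Cy5 and Cy3 are open to dye bias.

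The dye coefficient, the mean of Cy5 over Cy3 across the 4 arrays, combines the same 4 ratios of a gene with the signs of arrays 2 and 4 turned, so for these genes it is a description, with no test. It was 0.36 ± 0.17 (SE) for LUM, 0.05 ± 0.38 for DCN, 0.45 ± 0.28 for COL1A2, 0.36 ± 0.16 for LOX and 0.27 ± 0.12 for TPBG on the log2 scale. The array 1 ratio that chose the genes enters each of these values with a positive sign. Over all tested probes limma called 0 on the dye coefficient after adjustment, and 3.87% had an unadjusted p under 0.05.

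Across all tested probes, OXA gave 0 calls at an adjusted p under 0.05 in limma, and 509 probes (1.89%) had an unadjusted p under 0.05. A looser rule, an unadjusted p under 0.05 with at least a 1.2-fold change, was met by 177 probes higher with OXA (0.657%) and by 179 lower (0.665%). Its total of 356 became 3120 without array 3 and 2049 without array 4. The matrix lists beyond the chosen genes held 139 genes, of which 36 were named on the array and 34 were measured. Of these, 0 passed the adjusted threshold, 3 had an unadjusted p under 0.05, and 1 met the looser rule upward and 2 downward, with a total of 10 without array 3 and 6 without array 4. Their mean ratio was above 0 for 19 of 34 (55.9%), with a median log2 ratio of 0.02, against 42.6% and -0.02 for all 2407 measured named genes. On array 1, 5 of the 34 (14.7%) were at least 2-fold higher with OXA and 15 (44.1%) were highest there, against 3.45% and 34.7% of the named genes.

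The other fibrillar collagens measured were the type V chains, which sit inside type I fibrils and limit their width. COL5A2 came nearest to COL1A2, with log2 ratios of 1.18, -0.27, 0.27 and -0.29 on arrays 1 to 4 by its brightest probe. The mean was 0.22 ± 0.17 (SE of the limma fit, net of dye), while the SD of the 4 ratios was 0.69. Its 4 probes ran from -0.22 to 1.18 on array 1, and 3 of them were above 0 there. COL5A1 was at 0.40, 0.03, 0.05 and 0.11, and COL5A3 at -0.26, 0.02, -0.02 and 0.02. COL5A3 had no probe well above background in all 8 readings. The COL5A1 mean was 0.15 here and 0.60 in the deposited log ratio. In limma the adjusted p for the OXA coefficient was 0.764 for COL5A1 and COL5A2 and 0.766 for COL5A3, so none of the 3 passed. None of the 27 genes of the other collagens list was measured, since the single one named on the array was not kept.

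Other proteoglycans had lower ratios on array 1 than LUM and DCN by their brightest probes. The 4 measured had a median of -0.58 on array 1 and between -0.07 and 0.02 on the other arrays. ACAN, the aggregating proteoglycan of cartilage, gave -1.19 on array 1 by its brightest probe, but its 3 probes there reached up to 0.31. SDC4, a heparan sulfate proteoglycan of the cell membrane, gave -0.94, -0.60, 0.02 and 0.02 on arrays 1 to 4. VCAN, versican, was at -0.22, 0.17, 0.01 and 0.08, and HAPLN1, a link protein that ties such proteoglycans to hyaluronan, at 0.29, -0.04, -0.03 and 0.01. ACAN and VCAN had no probe well above background in all 8 readings, and the normexp offset pulls ratios of dim probes toward 0. In the deposited log ratio the mean was 0.35 for VCAN, against 0.01 here, and -0.61 for ACAN, against -0.32. It was -0.47 for SDC4, against -0.38, and -0.04 for HAPLN1, against 0.06. The adjusted p in limma was 0.764 for SDC4 and ACAN, 0.779 for HAPLN1 and 0.965 for VCAN.

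Among the genes that modify newly made collagen, P4HA1, a subunit of prolyl 4-hydroxylase, met the looser rule downward. Its log2 ratios were -0.65, -0.08, -0.94 and -0.02 on arrays 1 to 4. The mean was -0.42 ± 0.08 (SE of the limma fit, net of dye), while the SD of the 4 ratios was 0.45. All 7 P4HA1 probes had a mean below 0. The adjusted p in limma was 0.764, and the 2 arrays with OXA in Cy5 held the values farther from 0. FKBP10, a collagen chaperone of the endoplasmic reticulum, averaged 0.19 ± 0.24 (SE), and SERPINH1, the chaperone HSP47, averaged -0.07 ± 0.09 (SE). In the deposited log ratio the means were farther from 0, at -0.79 for P4HA1, 0.91 for FKBP10 and -0.12 for SERPINH1. Neither FKBP10 nor SERPINH1 passed in limma, with an adjusted p of 0.777 for FKBP10 and 0.785 for SERPINH1.

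POSTN, periostin, a matricellular protein that binds type I collagen, had the highest array 1 ratio of the matrix lists. It gave log2 ratios of 2.65 on array 1, -0.17 on array 2, 0.12 on array 3 and 0.03 on array 4, and its 6 probes ran from 2.26 to 3.48 on array 1. CTGF, a matricellular growth factor modulator, stood at the other end with -2.15, -0.46, -0.19 and 0.03 on its single probe. MGP, the matrix Gla protein that inhibits calcification, gave -0.38, -1.40, 0.13 and -0.17, and MFAP2, a microfibril protein, gave -0.14, -0.33, -0.13 and -0.06. Each of these 4 had an adjusted p of 0.764 in limma. The 12 matrix glycoproteins measured were split, with 6 above 0 on array 1 and a median there of 0.04.

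Among the 12 proteases and inhibitors measured, 8 had a mean above 0, and the median log2 ratio was 0.12. MMP1, the interstitial collagenase that cleaves fibrillar collagen, had log2 ratios of 1.03, 0.78, 0.83 and 1.2 on arrays 1 to 4 and a mean of 0.96 ± 0.10 (SE), and it met the looser rule upward. MMP1 thus had similar values on array 1 and on arrays 2 to 4. MMP3, stromelysin, gave 0.20, 0.26, 1.10 and 0.29, and PLAT, the tissue plasminogen activator, gave 0.23, -0.18, -0.06 and -0.42. For MMP1, MMP3 and PLAT the adjusted p in limma was 0.764. With the OXA RNA read as Cy5 on every array, a reading that the signs of the deposited ratios do not follow, the MMP1 mean was -0.03.

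**Figure D4:**
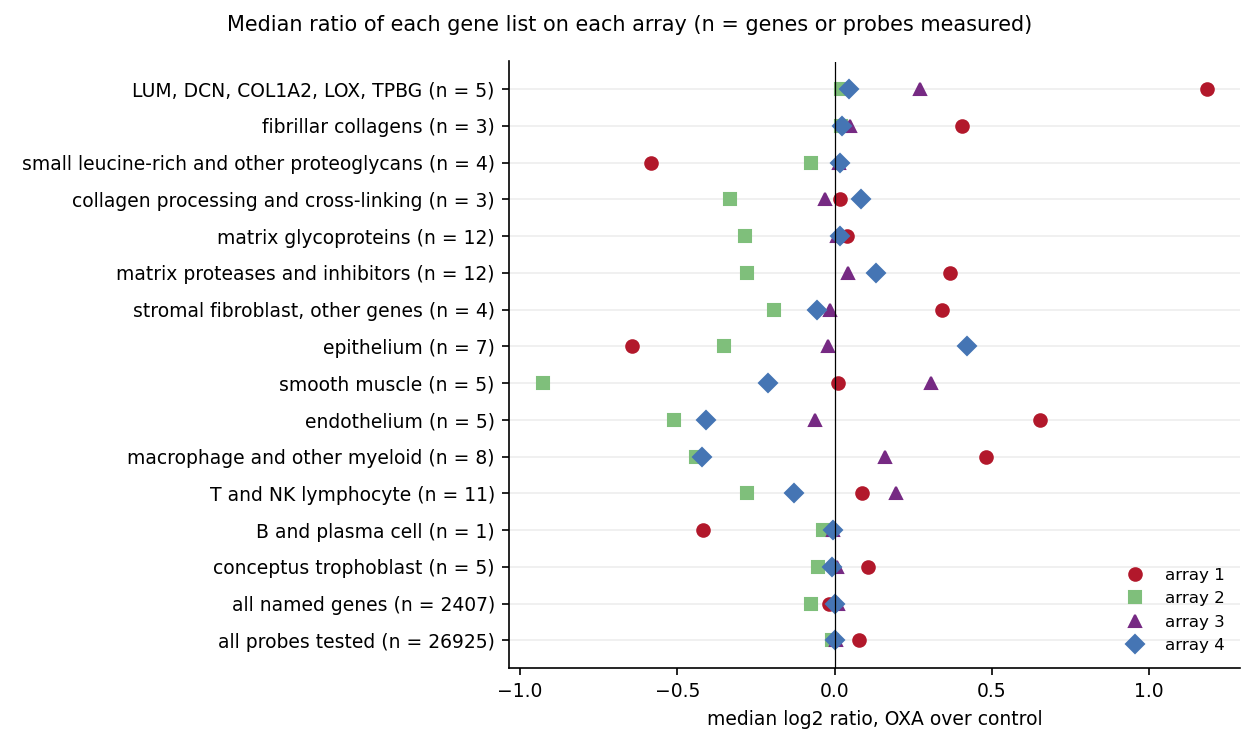
Median log2 ratio of OXA over control (horizontal axis) of each gene list on arrays 1 to 4 (symbols), with the 5 measured genes in the top row, all named genes and all tested probes in the bottom rows, and the number measured in brackets. The 5 genes have a median of 1.18 on array 1, against -0.64 for the epithelial markers, 0.65 for the endothelial markers and 0.08 for all tested probes.

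Markers of the cell types that a slice can hold also had ratios away from 0 on array 1, where 48.4% of the named genes measured and 58.4% of all tested probes were above 0. The stromal fibroblast list without the chosen genes had 4 of 24 genes measured, all above 0 on array 1, from 0.02 for IGFBP4 to 0.95 for CD34, with a median of 0.34. The median of this list was -0.19, -0.02 and -0.06 on arrays 2 to 4, where CD34 was at -0.86, -0.83 and -0.37. COL5A1 is on this list and also on that of the fibrillar collagens. The epithelial list had 7 genes measured, with 1 above 0 on array 1, a range from -1.86 for CLDN4 to 0.07 for CLDN7 and a median of -0.64. On arrays 2, 3 and 4 the epithelial median was -0.35, -0.02 and 0.42. On array 4, where the epithelial median was highest, LUM, DCN, COL1A2, LOX and TPBG were at -0.04, 0.74, 0.26, 0.05 and 0.04. A link was not tested.

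Endothelial genes had 4 of 5 above 0 on array 1, from -0.19 for CLDN5 to 0.74 for VWF, and a median of 0.65. The myeloid list had 6 of 8 above 0 there, from -0.66 for CD14 to 1.02 for TYROBP, and a median of 0.48. Both lists were below 0 by their median on arrays 2 and 4, at -0.51 and -0.41 for endothelium and -0.44 and -0.42 for myeloid cells. Smooth muscle genes ranged from -0.43 for SMTN to 1.35 for DES on array 1, and their median was 0.01 there and -0.93 on array 2. On array 2 the ratios of LUM, DCN, COL1A2, LOX and TPBG were 0.08, 0.02, -0.52, -0.13 and 0.17. A link to smooth muscle was not tested.

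T and NK lymphocyte genes had 7 of 11 above 0 on array 1, from -0.61 for CD247 to 0.43 for NKG7, with a median of 0.09. CD79A, the single B cell marker measured, was at -0.42 on array 1. The 5 trophoblast markers ranged from -0.36 for IL1B2 to 0.29 for IFN-DELTA-1 there. None of the 4 genes on the red cell list was named on the array. In all these lists 0 genes passed in limma after adjustment, 0 met the looser rule and 0 had an unadjusted p under 0.05. The part of cell make-up in the ratios of the collagen and proteoglycan genes was not tested.

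The 10 named genes whose 4 array ratios lay nearest to the median profile of the 5 genes were sought over 2402 others, by the root mean square difference across 4 arrays. They were RNASE4 and F5 at 0.10, TFAP2C at 0.12, CDH11 at 0.13, SRSF4 at 0.15, WT1, DPP4, MMP2 and BST2 at 0.16, and ARL6IP4 at 0.19 log2 units. Of the 5 genes themselves, LUM lay at 0.06, LOX at 0.10, TPBG at 0.16, COL1A2 at 0.33 and DCN at 0.54 from their own median. DCN was thus the farthest from that median. Among the 10, MMP2, gelatinase A, is the matrix protease, with log2 ratios of 1.13, -0.13, -0.01 and 0.01 on arrays 1 to 4, and both of its probes agreed on array 1 at 1.13 and 1.21. CDH11, a cadherin of mesenchymal cells, gave 1.08, 0.03, 0.05 and 0.01. For WT1 and ARL6IP4 at least 1 other probe was below 0 on array 1, so their likeness depended on the probe. That of SRSF4 did too, with its 2 probes at 0.16 and 1.15 there. RNASE4, F5, CDH11, DPP4 and BST2 had 1 kept probe each. The likeness is largely that of the array 1 value, and none of the 10 passed in limma, with an adjusted p of 0.764 each.

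**Figure D5:**
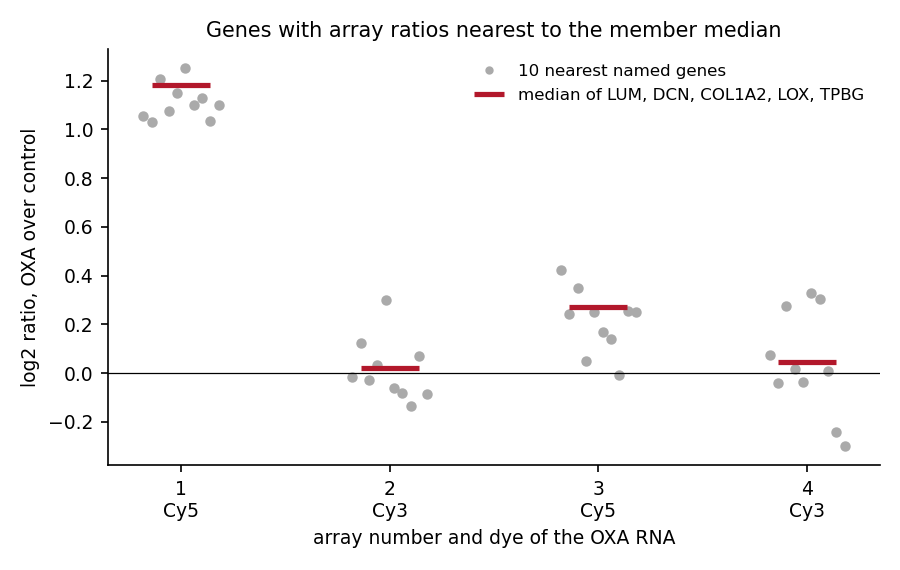
Log2 ratio of OXA over control (vertical axis) on arrays 1 to 4 with the dye of the OXA RNA, for the 10 named genes nearest to the median of LUM, DCN, COL1A2, LOX and TPBG (grey points, in the same left to right order on each array) and for that median (red bars). The median is 1.18, 0.02, 0.27 and 0.05 on arrays 1 to 4.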

How the data were processed

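Each array set 1 OXA RNA against 1 control RNA. Per the file headers, Agilent Feature Extraction 10.7.3.1 gave the median intensity of every spot and of its background in both dyes, and the log10 ratio between the dyes (Cy5 over Cy3), which was background-subtracted and dye-normalized. The value table deposited by the authors holds log2 ratios. They matched the log10 ratio, turned to OXA over control on the log2 scale, within 0.001 for 66% of 43420 probes, and column medians were -0.17, 0.06, -0.06 and 0.09. How its columns were centred stays unknown.

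Intensities were corrected with normexp (offset 50), which pulls ratios of dim probes toward 0, and normalized by loess with control spots at weight 0. Outlier spots were left out and replicate spots averaged. A probe was kept when well above background in at least 4 of 8 readings and measured on all 4 arrays. Of 27060 probes that reached the minimum, 135 were lost to outlier spots. Levels came from Aquantile normalization. Ratios were fitted in limma 3.58.1 (R 4.3.3) with OXA and dye coefficients, eBayes (3.89 degrees of freedom after moderation) and Benjamini-Hochberg adjustment over 26925 probes. Values marked SE come from this fit, after its dye term and moderation, and can be smaller than the SE of the 4 ratios themselves. P-values of the fit rest on the same moderated spread, which is what is left between arrays after the dye term and may be technical. A gene is its brightest kept probe. Accessions named 6700 of 7125 probes and 3029 genes in the Sscrofa11.1 table. The file headers name no genome build, and coordinates are left out. The fit was tested on simulated data.

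The genes, lists and alternatives were chosen with earlier results of these data known. Named beside the 6 genes are up to 4 measured genes per matrix list with the lowest unadjusted p, the extremes of each marker list on array 1 and the 10 nearest genes; 1 gene that this rule names is not reported here. Alternatives covered background correction, normalization, the deposited ratios, the probe filter, the probe summary, the dye reading, each array left out, the slide and the fit.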

Additional observations from a re-analysis of the deposited data

Results flagged for a closer look

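In 20 of 74 sets of 4 values that were examined, 1 array lay apart from the other 3 by Dixon's ratio. Chance alone gives about 1 in 20 for sets drawn from 1 normal distribution, but 24.6% of all tested probes had such an array here. Of the 20, 18 were set apart by array 1. They included 7 LUM probes, A_72_P293589 at 1.61, A_72_P573664 at 1.21, A_72_P583531 at 0.85, A_72_P665036 at 0.69, A_72_P624127 at 0.66, A_72_P560404 at 0.62 and A_72_P593744 at 0.39. Of these 7, 5 had an array 1 control reading that was not well above background. Dixon's ratio was taken after the normexp offset, which pulls ratios of dim probes toward 0, and not on the deposited log ratio. There the 8 LUM probes above 0 on array 1 lay at 0.48 to 1.10 on array 3. The LUM probes belong to genes chosen by their array 1 ratios, and CDH11 and MMP2 were named for ratios like theirs. IFN-DELTA-1 and CD79A were named as extremes of a marker list on array 1. For all of these nothing is read from the position of array 1. The brightest probes of LUM, DCN, COL1A2, LOX and TPBG were not among the 20.

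Among list medians, array 1 lay apart for fibrillar collagens at 0.40, for proteoglycans at -0.58 and for the single B cell marker CD79A at -0.42, which was also set apart as a gene. Array 2 lay apart for matrix glycoproteins at -0.28. Among named genes, array 1 lay apart for POSTN at 2.65, MMP2 at 1.13, CDH11 at 1.08, HAPLN1 at 0.29, IFN-DELTA-1 at 0.29, COL5A3 at -0.26 and ACAN at -1.19, and array 3 lay apart for MMP3 at 1.10.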

How the results depend on the processing

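The median OXA ratio of the 5 genes was above 0 under every alternative run, at 0.08 without array 1 and up to 0.49 when another array was left out. These ratios chose the genes, so nothing is read from their signs across settings. The 15 settings include the main one and are not separate checks. Both changes of the probe filter gave the main values for these genes, and the value table gave those of the Agilent log ratio. The gene means of LUM, DCN, LOX and TPBG were above 0 in all 15 settings, and COL1A2 in 13. COL1A2 was at -0.06 without array 1, which equals the setting within the slide of arrays 2 to 4. There the coefficient fitted with a dye term was -0.06 for DCN and -0.02 for COL1A2, and above 0 for LUM (0.17), LOX (0.11) and TPBG (0.23). With the Agilent log ratio the means were 0.60 for LUM, 0.50 for TPBG, 0.42 for DCN, 0.38 for LOX and 0.17 for COL1A2. The brightest LUM probe, like that of TPBG, was then above 0 on 4 of 4 arrays. COL1A2 was then at -0.19 on array 3, against 0.09 in the main setting. The excess of array 1 was 2.02 with median centring in place of loess and 1.02 to 1.15 with 1 of the other arrays left out. On the dye coefficient, median centring put 8214 of 26925 probes past the adjusted threshold, against 0 with loess and 0 with any array left out. The median dye coefficient of the 5 genes was 1.18 with median centring and 0.36 with loess. It uses the ratios that chose the genes, so it is a description, with no test. Median centring also moved the median OXA ratio of all probes to 0.14, against 0.02. In limma, adjusted OXA calls were 0 over all probes and the other matrix genes in every setting. The looser count of 356 probes became 1405 with no background correction, 4292 with median centring, 1828 with the Agilent log ratio, 1824 with the value table, 681 with OXA in Cy5 on all arrays, 193 with array weights, and 286 to 3120 with an array left out, 3120 without array 3 and 2049 without array 4. For the other matrix genes, 3 became 7, 6, 8 and 8 in the first 4 of these, 4 to 10 with an array left out and 2 with no dye coefficient. Signs reversed with median centring for P4HA1 (0.019), SERPINH1 (0.18), MFAP2 (0.15) and PLAT (0.18), and with the Agilent log ratio and the value table for HAPLN1 (-0.040) and COL5A3 (0.00084). With OXA in Cy5 on all arrays they reversed for VCAN (-0.11), SERPINH1 (0.059), MFAP2 (0.032), MGP (0.33), MMP1 (-0.031) and PLAT (0.19). With an array left out, the coefficient ranged from -0.0051 to 0.45 for COL5A2 and from -0.021 to 0.14 for HAPLN1, both lowest without array 1, from -0.051 to 0.066 for VCAN (below 0 without array 2 or 3), from -0.14 (without array 4) to 0.51 for FKBP10 and from -0.17 to 0.038 (without array 2) for SERPINH1. The cause was not tested. No paired analysis was possible because each array is already a ratio of OXA to control and there is 1 group of ratios. The array 1 excess has no value without array 1, and the dye coefficient has none with OXA in Cy5 on all arrays.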
